A study of Mus musculus with 41 samples.

Results

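The muscle-restricted distal H3K18la regions are stretches of the mouse genome that carried a peak of histone H3 lysine 18 lactylation (H3K18la) in cultured myotubes (MT), in cultured myoblasts (MB) and in gastrocnemius muscle (GAS), in no cell type of another lineage, and away from promoters. They were chosen by the H3K18la peak lists themselves. A region was an MT H3K18la peak that overlapped by at least 1 bp a peak of the MB list and a peak of the GAS list, overlapped no H3K18la peak of embryonic stem cells in serum (ESC-ser) or 2i medium (ESC-2i), bone marrow-derived macrophages (BMDM), macrophages sorted from ischemic muscle (PIM) or adipocytes (ADIPO), and lay outside 2 kb on either side of any annotated transcription start site (TSS). On chromosomes 1 to 19 the rule found 841 regions among 33496 MT H3K18la peaks, and the 24 lists of the series held 533048 peaks there.

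The series profiled 4 histone marks by CUT&Tag, in which an antibody tethers a transposase that cuts and tags the DNA beside the marked histone. All cells and tissues were from mouse. MB were primary cultures and MT were myoblasts that had been put through differentiation in culture. GAS was snap-frozen muscle of adult female C57Bl6/J mice, so its nuclei were a mixture of muscle fibre and other nuclei. PIM were CD45+CD11b+F4/80+CD64+ cells sorted from calf muscle after hindlimb ischemia, BMDM were cultured with M-CSF, and ADIPO nuclei were pulled down from epididymal fat of female AdipoCre-NuTRAP mice, in which the adiponectin promoter drives the Cre that tags them. ESC-ser and ESC-2i were the E14 line, and they entered the assay as whole cells whereas the other cell types entered as nuclei. The 14 H3K18la samples covered 8 cell types. MB and BMDM had 1 sample each and the other 6 cell types had 2, and the replicates had been pooled into 1 peak list per cell type and mark. The spread between replicates could therefore not be measured from the lists, and the intervals given below (95%, Wilson) cover counting error over regions or genes only.

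H3K18la is a histone modification in which a lactyl group derived from lactate sits on lysine 18 of histone H3, and it has been described at active promoters and at distal elements. Distal regions that carry H3K27ac, an acetyl mark of active elements, are commonly read as enhancers. H3K4me3 marks active promoters and H3K27me3 marks chromatin silenced by Polycomb. In muscle, the myogenic factors Myod1, Myf5, Myog and Myf6 bind a short motif, the E-box, at such elements, and AP-1 factors bind distal elements of many cell types.

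For the regions the results turn on, the 300 bp around the middle of the stretch of highest MT signal are printed here 5′ to 3′ from the GRCm38.p6 genome (RefSeq), in lower case. The first is the region of highest rank, the next 5 belong to genes of lists for myogenic regulators, the sarcomere, calcium handling and connective tissue, and the last lies in the largest cluster. Capitals mark every match on either strand to the E-box CAGCTG, the E-box CAGGTG, the MEF2 motif, the AP-1 motif (TGACTCA or TGAGTCA), the TEAD motif GGAATG, and the MEF3 and GATA motifs. They are shown so that the motif counts given further on can be read in the letters.
Region in Jph2, nearest TSS Tox2, chr2:163347656-163347955, plus strand: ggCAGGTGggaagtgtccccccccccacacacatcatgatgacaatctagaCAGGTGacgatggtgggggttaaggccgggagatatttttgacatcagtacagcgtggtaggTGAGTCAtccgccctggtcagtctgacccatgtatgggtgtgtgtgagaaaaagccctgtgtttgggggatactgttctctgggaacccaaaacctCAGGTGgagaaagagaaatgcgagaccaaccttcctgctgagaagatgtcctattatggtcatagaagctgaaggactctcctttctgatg
Region upstream of Myf6, chr10:107499687-107499986, plus strand: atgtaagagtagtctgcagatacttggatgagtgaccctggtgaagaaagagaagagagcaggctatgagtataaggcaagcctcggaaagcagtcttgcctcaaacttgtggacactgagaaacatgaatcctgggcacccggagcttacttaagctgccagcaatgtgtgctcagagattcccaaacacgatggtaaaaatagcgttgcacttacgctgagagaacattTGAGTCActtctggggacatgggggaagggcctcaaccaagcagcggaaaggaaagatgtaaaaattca
Region upstream of Vgll2, chr10:51945808-51946107, plus strand: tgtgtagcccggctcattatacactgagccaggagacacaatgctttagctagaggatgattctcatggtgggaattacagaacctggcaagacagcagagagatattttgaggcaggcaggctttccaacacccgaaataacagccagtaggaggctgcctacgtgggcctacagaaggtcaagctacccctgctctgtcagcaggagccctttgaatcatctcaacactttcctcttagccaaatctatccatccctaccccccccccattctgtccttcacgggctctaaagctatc
Region upstream of Tpm1, chr9:67114180-67114479, plus strand: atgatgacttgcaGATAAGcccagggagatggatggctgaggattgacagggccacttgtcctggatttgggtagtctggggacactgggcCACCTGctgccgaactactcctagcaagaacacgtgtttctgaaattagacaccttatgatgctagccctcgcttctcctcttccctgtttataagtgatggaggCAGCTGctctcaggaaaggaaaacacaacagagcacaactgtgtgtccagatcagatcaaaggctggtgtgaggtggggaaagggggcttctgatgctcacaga
Region upstream of Cacng1, chr11:107731561-107731860, plus strand: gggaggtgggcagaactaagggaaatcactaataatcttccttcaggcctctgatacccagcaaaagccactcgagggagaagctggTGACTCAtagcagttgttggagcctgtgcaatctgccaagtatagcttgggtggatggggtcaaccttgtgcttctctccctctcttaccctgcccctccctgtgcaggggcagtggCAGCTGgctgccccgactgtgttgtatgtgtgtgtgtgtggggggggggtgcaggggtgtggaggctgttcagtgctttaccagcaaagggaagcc
Region upstream of Col1a2, chr6:4489356-4489655, plus strand: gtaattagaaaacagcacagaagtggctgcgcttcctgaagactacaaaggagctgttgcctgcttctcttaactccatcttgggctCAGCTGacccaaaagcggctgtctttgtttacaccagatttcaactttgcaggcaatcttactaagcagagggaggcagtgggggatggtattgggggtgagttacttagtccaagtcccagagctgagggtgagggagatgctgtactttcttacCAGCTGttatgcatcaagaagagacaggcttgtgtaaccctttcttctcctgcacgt
Region in Zfp366, chr13:99238433-99238732, plus strand: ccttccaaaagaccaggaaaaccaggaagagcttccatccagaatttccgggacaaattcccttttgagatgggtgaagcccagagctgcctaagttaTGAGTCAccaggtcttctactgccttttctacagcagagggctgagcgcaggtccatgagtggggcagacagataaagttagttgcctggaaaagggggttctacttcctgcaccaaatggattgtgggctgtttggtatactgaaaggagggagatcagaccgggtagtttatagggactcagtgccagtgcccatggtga

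The 841 regions made up 3.75% of the 22411 distal MT peaks. Of these distal peaks, 12701 (56.7%) had no H3K18la peak in another lineage. Within that group 6758 were called in MT alone, 2688 in MT and GAS but not MB, 2414 in MT and MB but not GAS, and 841 in all 3 muscle types. A further 2038 distal MT peaks were called in MB and GAS and also in another lineage, and these are called the shared regions below. The MB list was the shortest of the 8 H3K18la lists with 13358 peaks, against 18762 to 36322 in the others.

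At the edges of the rule, the member closest to a TSS lay 2006 bp away and the farthest peak left out as a promoter lay 1964 bp away. Another 300 peaks had the same H3K18la pattern over cell types and were left out as promoters. The smallest overlap of a member was 43 bp with MB peaks and 26 bp with GAS peaks. In 445 of the 841 regions, under 50% of the bases lay in MB or in GAS peaks. Of the 841, 48 had an H3K18la peak of another lineage within 1 kb, and the shared region with the least overlap touched such a peak by 5 bp.

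The labels were compared with H3K18la at promoters of marker genes. Of 45 sarcomere genes, 42 had a promoter peak in MT, 38 in GAS and 11 in MB, against 5 to 17 in the other 5 cell types. The lists differed in how many promoters of any kind they marked, with 11.5% of all genes in MB, 35.8% in MT, 37.0% in GAS, 34.4% in ESC-ser, 38.8% in ESC-2i, 45.6% in ADIPO, 38.6% in PIM and 3931 of 20698 genes in BMDM. Set against these, the sarcomere share was above that of all genes in MT, GAS and MB (24.4% in MB), and below it in the other 5 types (11.1% in BMDM to 37.8% in ESC-2i). Of 19 myogenic regulators, 15 were marked in MT, 16 in GAS and 9 in MB, against 8 in ESC-ser and ESC-2i, 7 in ADIPO and 4 in BMDM and PIM. The share in MB (47.4%) lay above its 11.5% of all genes by more than that in ESC-ser and ESC-2i (42.1%) lay above theirs. Those marked in MB included Myod1 and Myf5, the determination factors of myoblasts. Myog, a factor of differentiation, was marked in MT and GAS but not MB. The 15 stem cell markers were all marked in ESC-ser and ESC-2i, the 15 macrophage markers in BMDM and PIM, and the 15 adipocyte markers in ADIPO. Markers of other cells were present too. Of 12 fibroblast and matrix genes, 11 were marked in GAS, 9 in MT and 6 in MB. The peaks at their promoters held 0.0270% of the total signal of the GAS list, 0.0348% of MT and 0.0408% of MB. Those at promoters of the 45 sarcomere genes, a longer list, held 0.390%, 0.326% and 0.132%, so the 2 lists stood closest in MB. Col1a2, Col3a1, Pdgfrb, Postn, Fn1 and Thy1 were marked in both MT and MB, and Col1a1, Fbn1 and Dpt in MT only of the 2. Pdgfra, Dcn and Lum had no promoter peak in MT or MB. Of 15 macrophage markers, 5 were marked in GAS, 4 in MT and 1 in MB. Csf1r and Spi1 were marked in GAS and MT, and Cd14 in MT and MB. C1qa, C1qb and Irf8 were marked in GAS and Cd68 in MT, while Adgre1 and Itgam were marked in none of these types. Of 15 adipocyte markers, 11 were marked in PIM, 10 in GAS, 5 in MT and BMDM, 4 in ESC-ser and 3 in MB. Of 10 endothelial genes, 10 were marked in GAS, 3 in MT and 1 in MB. In GAS a mark on few nuclei and a weak mark on all nuclei cannot be told apart, and the panel held no fibroblast or endothelial cells against which a region could have been left out.

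The regions were wider and more strongly marked in MT than distal MT peaks at large, and less so than the shared regions. Their median width was 4102 bp (range 1083 to 35414 bp), against 2938 bp for all distal MT peaks and 5072 bp for the shared regions. Total signal, the fragment coverage summed over a peak, was compared within each list as a percentile, since the coverage was not scaled for depth. The median percentile of the regions was 78.1 in MT (quartiles 57.1 and 90.2), against 48.0 for all distal MT peaks and 85.7 for the shared regions. It was 55.9 in MB (30.3 and 78.6) and 59.0 in GAS (31.2 and 80.5). These lists chose the regions, so the percentiles are a description. Few regions stood high in all lists: 69 of 841 were above the 75th percentile in MT, MB and GAS together, and 17 were above the 90th. Across the 841 regions the percentiles of MB and GAS were nearly unrelated (Spearman's rho 0.03), those of MT and GAS weakly (0.13) and those of MT and MB more (0.31). In MB and GAS the percentile was that of the overlapping peak of that list, or the highest where a region met several, and 31 regions shared a GAS peak and 10 an MB peak with another region.

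**Figure D1:**
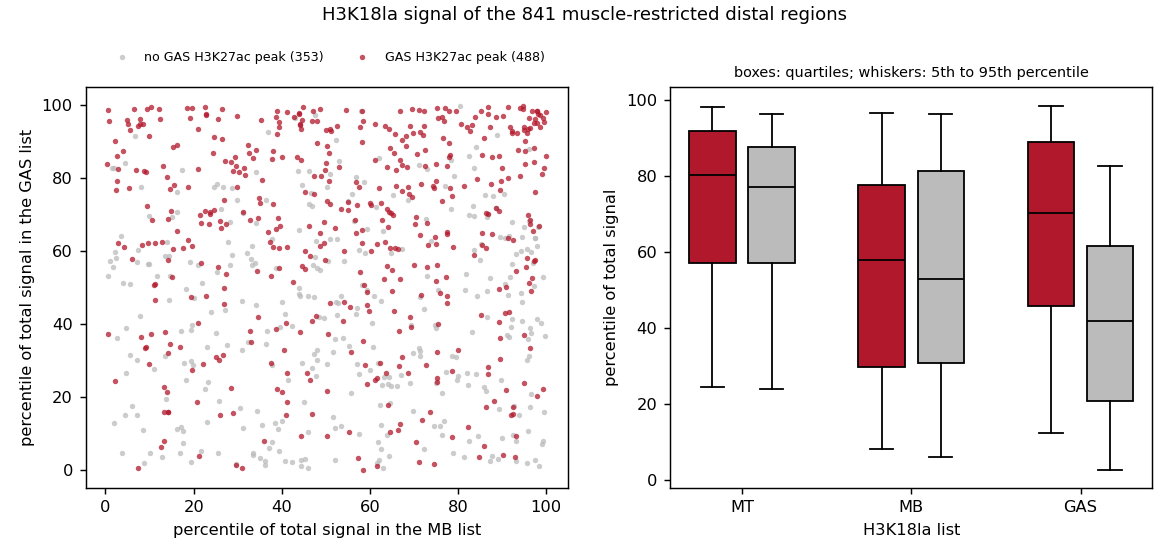
Percentile of total H3K18la signal of the 841 regions. The left panel plots each region by its percentile in the MB list (x axis) and the GAS list (y axis), and the right panel gives boxes per list. Regions with a GAS H3K27ac peak (488, red) sat higher in the GAS list (median 70.4) than the 353 without one (grey, median 41.8), while their medians in MB were 57.9 and 53.0.

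The 10 regions with the highest mean percentile were led by a 35414-bp region in an intron of Jph2, which encodes junctophilin 2, a protein that ties the sarcoplasmic reticulum to the cell membrane. It spanned chr2:163340024-163375437 and stood at the 99.9th percentile in MT, the 99.9th in MB and the 98.2nd in GAS. Its nearest protein-coding TSS was that of Tox2, 27428 bp away. The next were an intergenic region 66093 bp upstream of Slc6a6, the taurine transporter (percentiles 99.5, 98.0 and 97.7), and one 121546 bp from the TSS of Tgfb2, a TGF-beta ligand (99.4, 99.2 and 96.7). A region in an intron of Ddr2, a collagen receptor, ranked sixth with 99.5 in MT, 96.0 in MB and 96.4 in GAS. An intronic region of Rbm20, a splicing factor of muscle transcripts such as titin, ranked ninth with 96.6, 94.1 and 99.4. The other 5 were nearest to Gm26897, Eml1, Exog, Slc38a6 and Mical2. All 10 carried H3K27ac in GAS, 3 carried H3K4me3 in GAS, and 7 carried H3K27me3 in ESC-2i. Over all 841 regions these shares were 58.0%, 16.2% and 17.8%. In the widest 210 regions, H3K27ac in GAS was at 71.4% and H3K27me3 in ESC-2i at 31.0%. The 10 of highest rank were 4392 to 35414 bp wide, and wide regions meet other peaks more often. The rank itself used signal summed over the width of a peak.

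In GAS, 488 of the 841 regions (58.0%, 54.7 to 61.3%) overlapped an H3K27ac peak, against 35.6% of all distal MT peaks and 69.0% of the shared regions. Outside muscle few regions had H3K27ac. An H3K27ac peak was present at 14 regions in ADIPO (1.66%, background over all distal MT peaks 14.0%), at 5 in PIM (0.595%, background 13.4%), at 2 in ESC-ser (0.238%, background 4.26%) and at 0 in BMDM (interval up to 0.455%, background 8.71%). Among the shared regions, which carry H3K18la in another lineage by definition, these shares were 43.0%, 47.0%, 13.6% and 33.1%. The other distal MT peaks without H3K18la outside muscle were low too: in ADIPO the share was 2.23% of those called in MT and GAS but not MB, 0.249% of those in MT and MB but not GAS and 0.385% of those in MT alone. The low shares outside muscle were thus not particular to the 841 regions, and the rule that left out H3K18la of other lineages chose all of these sets. GAS was the only muscle type with an H3K27ac list, so 1 cell type stood against 4 and no permutation of cell types could give a p below 0.2. No test was made. A total of 474 regions (56.4%) had H3K27ac in GAS and in no other list, against 20.7% of all distal MT peaks and 63.4% of those called in MT and GAS but not MB. H3K27ac outside GAS was at 20 regions (2.38%), against 26.3% and 3.72%. Of those 20, the ones of highest rank lay upstream of Col5a1, a fibrillar collagen, and in an intron of Cald1, an actin-binding regulator of contraction, both with H3K27ac in ADIPO. These 2 were named after their values were seen.

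**Figure D2:**
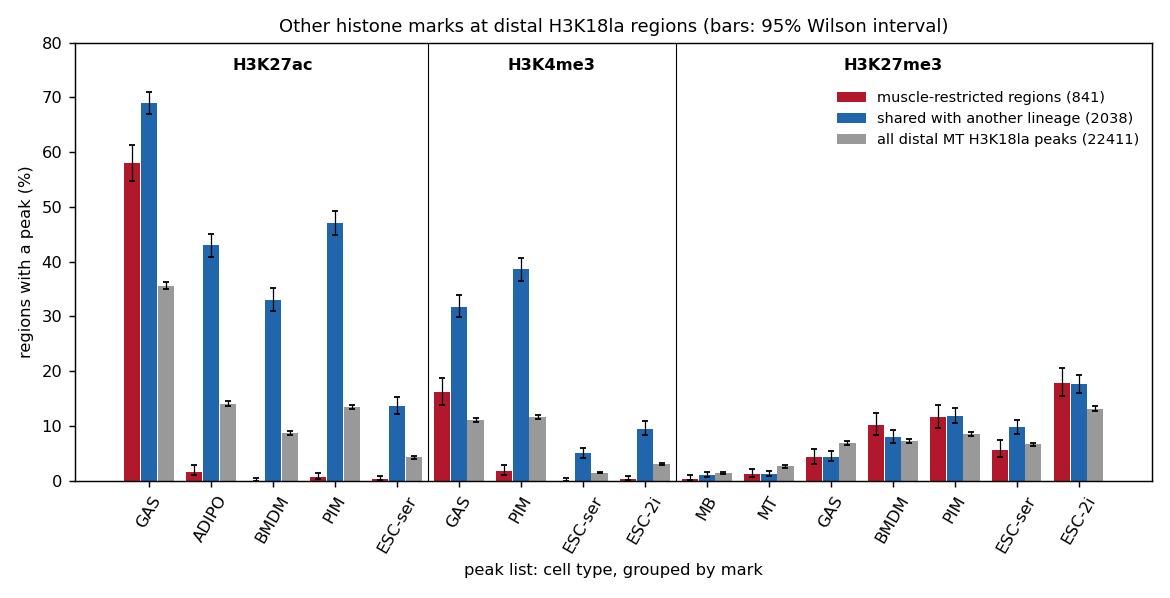
Share of regions (y axis, percent) that overlapped a peak of each of the 16 lists of other marks (x axis), for the 841 muscle-restricted regions (red), the 2038 shared regions (blue) and all 22411 distal MT H3K18la peaks (grey). Error bars are 95% Wilson intervals. The red H3K27ac bar was 58.0% in GAS and at most 1.66% in the other 4 cell types, and the red H3K27me3 bars ran from 0.357% in MB to 17.8% in ESC-2i.

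The 353 regions without GAS H3K27ac differed from the 488 with it mainly in the GAS list. Their median GAS percentile was 41.8 against 70.4, whereas the MT medians were 77.0 and 80.3. They were also narrower (median 3686 against 4425 bp) and farther from a coding TSS (55583 against 40472 bp). The share with GAS H3K27ac was 50.7% in the narrowest 211 regions (1083 to 2780 bp) and 71.4% in the widest 210 (6510 to 35414 bp).

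H3K4me3 was found in GAS at 136 regions (16.2%, 13.8 to 18.8%), against 11.0% of all distal MT peaks and 31.8% of the shared regions. Of the 136, 112 carried H3K27ac and no H3K27me3, which is 13.3% of the regions against 8.17% of all distal MT peaks. In the other cell types H3K4me3 was at 15 regions in PIM (1.78%, background 11.6%), 2 in ESC-2i (0.238%, background 3.02%) and 0 in ESC-ser (background 1.47%). When the 3 GAS marks were combined, 360 regions (42.8%, background 26.2%) had H3K27ac alone, 19 (2.26%, background 1.84%) had H3K4me3 alone, 36 (4.28%) had H3K27me3 with or without the others, and 314 (37.3%, background 56.9%) had none of them. H3K27ac alone was at 41.4% of the shared regions and at 51.3% of those called in MT and GAS but not MB, and none of the marks at 24.6% and 30.1%.

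H3K27me3 was rare at the regions in muscle and more frequent in BMDM, PIM and ESC-2i, while ESC-ser lay near GAS. It overlapped 3 regions in MB (0.357%, background 1.43%), 10 in MT (1.19%, background 2.60%) and 36 in GAS (4.28%, background 6.87%). In the other types it overlapped 47 in ESC-ser (5.59%, background 6.62%), 85 in BMDM (10.1%, background 7.23%), 97 in PIM (11.5%, background 8.57%) and 150 in ESC-2i (17.8%, background 13.2%). H3K27me3 lists differed in how much of the genome they covered, so the share of member bases under H3K27me3 was divided by the share of chromosomes 1 to 19 under it. This fold enrichment was 0.0424 in MB, 0.121 in MT and 0.356 in GAS, all below 1. It was 0.741 in ESC-ser, 1.69 in PIM, 1.93 in BMDM and 2.15 in ESC-2i. The groups did not overlap. The mean was 0.173 ± 0.163 in the muscle types (SD, n = 3) and 1.63 ± 0.620 in the others (SD, n = 4), a difference of -1.45. An exact two-sided permutation test over cell types gave p = 0.0571, where the smallest p that 35 assignments allow is 0.0286, so the difference did not pass the threshold of 0.05. The groups compared are those the rule split by H3K18la, so this comparison is not free of the rule. Nor are the cell types independent of each other, since MT came from myoblasts, both stem cell lists from the E14 line, and BMDM and PIM are both macrophages, which the test ignores. ESC-ser stood nearest to the muscle types, and its fold was also below 1.

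The same pattern was present in distal MT peaks at large. For all distal MT peaks the fold enrichment was 0.445 in muscle and 1.48 in the other types (exact permutation test, p = 0.0286, n = 3 and 4), and for the shared regions 0.157 and 1.48 (exact permutation test, p = 0.0286). Both sets were also chosen by H3K18la in MT, and the shared regions in MB and GAS as well. These comparisons are therefore not free of that choice either. The cell types are related to each other here as above, which the tests ignore. Whether the muscle-restricted and the shared regions differed in this enrichment was not tested. Their shares with H3K27me3 were close in ESC-2i (17.8% and 17.6%) and PIM (11.5% and 11.9%), and in ESC-ser the muscle-restricted regions were lower (5.59%, 4.23 to 7.35%, against 9.72%, 8.50 to 11.1%). In BMDM the counts were 85 of 841 and 163 of 2038.

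In the 4 other types together, 240 of the 841 regions (28.5%) carried H3K27me3 in at least 1 list, against 22.2% of all distal MT peaks and 28.3% of the shared regions. In a stem cell list 165 carried it (19.6%, background 15.8%), and in at least 1 of the 3 muscle lists 45 did (5.35%, background 8.78%). Those with stem cell H3K27me3 and the highest rank were the regions nearest to Tox2, Tgfb2, Gm26897, Eml1 and Exog named above. In ESC-2i the share was 11.8% in the narrowest 211 regions and 31.0% in the widest 210. The part of width in these shares was not tested.

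Of the 841 regions, 478 (56.8%, 53.5 to 60.1%) had the middle of their stretch of highest signal in an intron, 349 (41.5%) between genes and 14 (1.66%) in an exon. Introns held 51.6% of all distal MT peaks, 55.2% of the shared regions and 58.5% of those called in MT and GAS but not MB. In distal regions restricted to other lineages the share was 54.7% for adipocytes, 48.1% for macrophages and 39.9% for stem cells. The median distance to the nearest protein-coding TSS was 45638 bp, against 42020 bp for all distal MT peaks and 32770 bp for the shared regions. Of the regions, 228 (27.1%) lay over 100 kb from any coding TSS and 90 (10.7%) within 10 kb. For all distal MT peaks these shares were 25.55% and 12.8%, and for the shared regions the counts were 327 and 270 of 2038. In 348 of the 841 cases the muscle-restricted region lay in an intron of its own nearest gene.

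The sequence at the middle of the regions was searched for motifs, which the rule did not use. The E-box CAGCTG, which the myogenic factors prefer, was present in 338 of the 841 windows of 300 bp (40.2%, 36.9 to 43.5%). It was present in 10.9% of 23941 genome windows placed every 100 kb, in 16.3% of RefSeq promoters, in 37.9% of all distal MT windows and in 37.6% of shared windows. In distal regions restricted to other lineages it was present in 17.3% (stem cells, 3567 regions), 15.8% (macrophages, 2551 regions) and 17.7% (adipocytes, 5773 regions). The related E-box CAGGTG did not follow this order, with 15.2% of the windows, 17.4% of genome windows and 31.9% of stem cell windows. The looser CANNTG, which contains both, was in 88.1% of the windows and 80.1% of genome windows. Median GC content was 48.7% in the windows, 49.7% in the stem cell windows and 42.0% in genome windows.

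The AP-1 motif (TGACTCA or its complement TGAGTCA) was present in 314 windows (37.3%, 34.1 to 40.7%), against 29.1% of all distal MT windows, 42.6% of shared windows and 4.69% of genome windows. It was in 8.16% of stem cell, 5.99% of adipocyte and 25.0% of macrophage windows. The TEAD motif GGAATG was in 253 windows (30.1%, 27.1 to 33.3%) and in 15.5% of genome windows, with 25.7% of all distal MT, 529 of the 2038 shared and 22.9% of stem cell windows. The MEF2 motif, bound by partners of the myogenic factors, was in 18 windows (2.14%, 1.36 to 3.36%), against 0.618% of genome windows, 2.28% of all distal MT windows and 1.91% of shared windows. Its frequency in the regions was thus that of distal MT peaks at large. MEF3 (3.80% against 4.58%) and GATA (8.92% against 10.6%) were no more frequent than in genome windows. A motif match is a description of the letters and does not show that a factor bound.

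Motifs were also counted in the other classes of muscle regions. The AP-1 motif was in 47.0% of the 2414 windows called in MT and MB but not GAS, in 37.3% of the windows called in all 3, and in 18.9% of the 2688 windows called in MT and GAS but not MB. MEF2 was in 1.45%, 2.14% and 4.50% of these. CAGCTG was in 32.7%, 40.2% and 41.9%. In the 6758 windows called in MT alone the shares were 22.2% for AP-1, 2.07% for MEF2 and 39.1% for CAGCTG. The MEF2 interval of the muscle-restricted regions (1.36 to 3.36%) overlapped that of MT and MB but not GAS (1.04 to 2.01%). It lay below that of MT and GAS but not MB (3.78 to 5.35%). The AP-1 intervals of these 3 classes did not overlap. No difference between classes was tested. Within the muscle-restricted regions, CAGCTG was in 40.4% of windows with and 39.9% of windows without GAS H3K27ac, and AP-1 in 37.3% and 37.4%. TEAD was in 32.2% and 27.2%, and MEF2 in 12 of 488 and 6 of 353. The intervals of each pair overlapped, and no difference was tested.

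Both motifs were concentrated at the middle. In the central 200 bp, CAGCTG was present in 34.2% of the regions and AP-1 in 32.9%. In the bins 2000 bp to either side CAGCTG was present in 9.75% and 9.51%, and AP-1 in 3.57% and 3.80%. The shared regions had 31.6% and 38.6% in the centre. The macrophage-restricted regions had 11.4% for CAGCTG and 21.7% for AP-1 there. In the printed sequences, the region upstream of Tpm1 had 1 CAGCTG and 1 CAGGTG on either strand, that upstream of Cacng1 had 1 CAGCTG and 1 AP-1 match, that upstream of Col1a2 had 2 CAGCTG, and the regions near Myf6 and Zfp366 had 1 AP-1 match each. The region in Jph2 had 3 CAGGTG and 1 AP-1 match, and the window near Vgll2 had no match, which says only that these letters are not in these 300 bp.

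**Figure D3:**
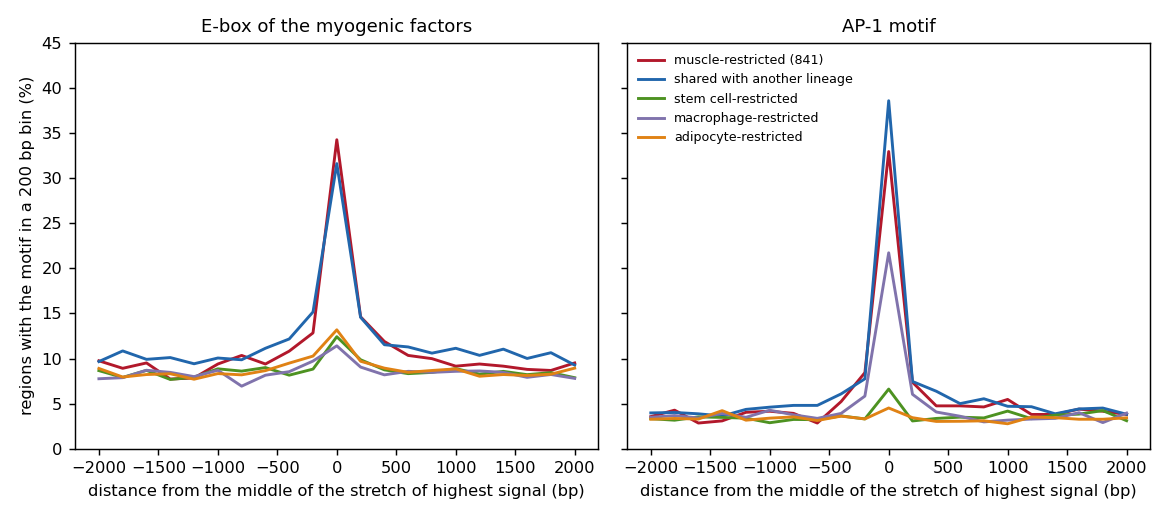
Share of regions (y axis, percent) with a CAGCTG E-box (left) or an AP-1 motif (right) in bins of 200 bp, by distance from the middle of the stretch of highest H3K18la signal (x axis, bp). The muscle-restricted regions (red) rose from 9.75% at the left edge to 34.2% in the centre for the E-box and from 3.57% to 32.9% for AP-1, and the shared set (blue) rose to 31.6% and 38.6%. The macrophage set (purple) reached 21.7% in the centre for AP-1 and 11.4% for the E-box, and the stem cell (green) and adipocyte (orange) sets had at most 13.2% in the centre in either panel.

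The 841 regions had 640 different nearest protein-coding genes, which is 3.09% of the 20698 genes considered. Of these, 492 were nearest to 1 region, 107 to 2 and 41 to 3 or more. The genes nearest to the most regions were not sarcomere genes for the most part. Zfp366 (a zinc finger protein) and Timp3 (an inhibitor of matrix metalloproteases) had 6 regions each. Tpm1 (tropomyosin of the thin filament), Trib2, Fndc1, Samd4, Cited2 and Arhgap42 had 4 each. Among the genes with 3 regions, Ddr2 and Rbm20 held the regions of highest mean percentile. The regions assigned to Cited2 were over 1 Mb from its TSS, between 1085998 and 1177598 bp, so that distance alone made the assignment. The 6 regions assigned to Timp3 lay in an intron of Syn3, in which Timp3 is nested.

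Among 19 myogenic regulators, Myf6 and Vgll2 were nearest to a region (10.5%, 2.94 to 31.4%, an interval that holds the 3.09% of all genes). The region 5100 bp upstream of Myf6, a myogenic factor of the same family as Myod1, stood at the 93.8th percentile in MT, the 78.0th in MB and the 98.5th in GAS, and it carried H3K27ac and H3K4me3 in GAS. Vgll2, a TEAD cofactor, had regions 76544 and 65883 bp upstream, of which the first stood at 94.1, 93.6 and 87.8 with H3K27ac in GAS and the second at 75.7, 31.3 and 11.4 with none.

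Among 45 sarcomere genes, Neb, Mybpc1, Tpm1 and Myom1 were nearest to a region (8.89%, 3.51 to 20.7%). Neb encodes nebulin, the ruler of the thin filament, and its region, in an intron 13098 bp downstream of the TSS, stood at 95.4 in MT, 89.2 in MB and 49.6 in GAS. The strongest of the 4 Tpm1 regions lay 64924 bp upstream and stood at 97.5, 96.4 and 93.8. The others stood at 78.8, 73.5 and 15.8, at 45.8, 19.4 and 47.4, and at 56.0, 71.8 and 13.7. All 4 carried H3K27ac in GAS. Myom1, a protein of the M-band, had intronic regions at 85.5, 65.7 and 92.1 and at 66.9, 74.6 and 1.49. Mybpc1, a myosin-binding protein of slow fibres, had 1 region 26603 bp upstream at 91.9, 53.8 and 36.0 with no H3K27ac in GAS. Neb, Mybpc1, the second Myom1 region and 3 of the 4 Tpm1 regions stood lower in the GAS list than in the MT list, as did 582 of the 841 regions (69.2%).

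Of 20 genes of calcium handling and excitation, Cacng1, the gamma subunit of the muscle calcium channel, was nearest to a region 15189 bp upstream, at 95.9, 80.7 and 94.9 with H3K27ac in GAS and H3K27me3 in BMDM and ESC-2i. Of 18 genes of the membrane and attachment, Dtna, Sntb1 and Ncam1 were nearest. Ncam1, a cell adhesion molecule of myoblasts and neurons, had a 24414-bp region at 99.7 in MT, 98.8 in MB and 40.3 in GAS, and a 3172-bp region at 91.1, 78.7 and 31.2. Of 20 genes of energy metabolism, Ppargc1a was nearest to a region that was 513041 bp away. None of 10 genes of the neuromuscular junction was nearest to a region.

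Genes of other cell types gave 0 of 15 for macrophages, 0 of 15 for adipocytes, 0 of 8 for neurons and 0 of 6 for smooth muscle, with intervals up to 20.4% for the first and 39.0% for the last. At 3.09% of all genes, lists this short would hold few or none, so these counts cannot be told from the background. Klf4 was the 1 of 15 stem cell genes, with regions 175624 and 560673 bp away, and Tek the 1 of 10 endothelial genes. Of 12 fibroblast and matrix genes, Col1a2, Col3a1 and Fbn1 were nearest (25.0%). The Col1a2 region, 15308 bp upstream, stood at 91.3 in MT, 90.4 in MB and 75.8 in GAS and had no H3K27ac in GAS. The fibroblast share (8.89 to 53.2%) and the sarcomere share (3.51 to 20.7%) had overlapping intervals, and both lay above the 3.09% of all genes. The part that fibroblast-like cells had in the regions was not tested.

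The list counts were also taken for the larger sets with other muscle lists, which reach more genes of any kind. The muscle-restricted regions were nearest to 3.09% of all genes and 4 of 45 sarcomere genes (3.51 to 20.7%). Regions called in MT and GAS but not MB were nearest to 7.85% of all genes, and to 13 of 45 (17.7 to 43.4%) sarcomere genes, 9 of 19 myogenic regulators, 4 of 20 calcium genes, 7 of 18 membrane genes and 6 of 12 fibroblast and matrix genes. Both sarcomere intervals overlapped, and no difference between the sets was tested. Lmod3, Actn2, Actc1, Myh2, Myh3, Myl1, Des and Trim63 were among these sarcomere genes and Myog and Mef2c among the regulators. Regions called in MT and MB but not GAS were nearest to 7.55% of all genes. They were nearest to 4 of 45 sarcomere genes, 5 of 19 myogenic regulators, 1 of 20 calcium genes and 4 of 18 membrane genes. For fibroblast and matrix genes their count was also 6 of 12. For comparison, the 3567 stem cell regions (11.7% of all genes) were nearest to 8 of 15 stem cell genes, the 2551 macrophage regions (7.72%) to 9 of 15 macrophage genes and the 5773 adipocyte regions (14.3%) to 7 of 15 adipocyte genes. When a gene was counted wherever a region lay within 100 kb of one of its TSS, the 841 regions reached 5.49% of all genes, 5 of 19 myogenic regulators (Myod1, Myf5, Myf6, Tead1 and Vgll2), 5 of 45 sarcomere genes and 4 of 20 calcium genes (Cacng1, Jph2, Mrln and Jsrp1). They also reached 4 of 18 membrane genes, 1 of 10 junction genes, 0 of 20 energy genes, 2 of 12 fibroblast and matrix genes (16.7%, against 11.1% of sarcomere genes) and 1 of 10 endothelial genes, and none of the stem cell, macrophage, adipocyte, smooth muscle or neuron lists.

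**Figure D4:**
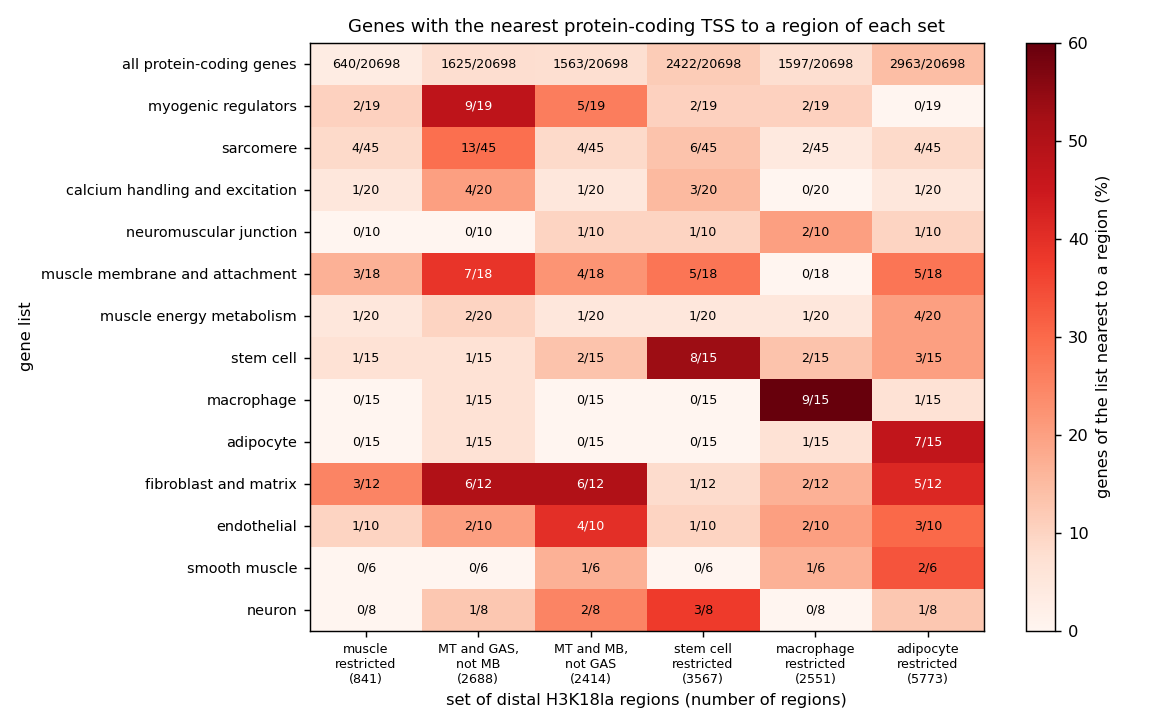
Genes of each list (rows) that had the nearest protein-coding TSS to a region of each set (columns), as counts in the cells and as percent by colour. The muscle-restricted regions were nearest to 4 of 45 sarcomere genes, the regions of MT and GAS without MB to 13 of 45, and each of the other lineages had its highest share in its own list, while that of the muscle-restricted regions was in the fibroblast and matrix list (3 of 12).

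The promoters of the 640 nearest genes were often marked by H3K18la in muscle, and in other cell types too. A promoter peak was present for 67.7% of the genes in MT (35.8% of all genes), 68.6% in GAS (37.0%) and 37.3% in MB (11.5%). By lineage, the shares were 50.2% in at least 1 stem cell list (43.7% of all genes), 47.5% in at least 1 macrophage list (40.0%) and 50.5% in ADIPO (45.6%). The nearest genes thus stood farther above all genes in the muscle types than in the other lineages. Those of the shared regions were at 71.8% in MT, 73.4% in GAS and 38.9% in MB, and those of the regions called in MT and GAS but not MB at 64.2% and 71.0% in MT and GAS and 439 of 1625 in MB, so high shares in muscle were not particular to the muscle-restricted regions. A promoter restricted in the same way as the region was rare: 16 of 640 genes (2.50%) had promoter H3K18la in all 3 muscle types and no other, against 0.367% of all genes. Cacng1, Cavin4 (a muscle caveolar protein), Synm (an intermediate filament protein), Eya4 (a cofactor of homeodomain factors) and Fgf7 were among them, named after their values were seen. Since the regions were chosen by H3K18la in these cell types, no test was made.

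The same promoters carried H3K27me3 more often than those of all genes outside muscle. The shares were 49.5% of 640 genes in ESC-ser (27.6% of all genes), 39.7% in ESC-2i (23.2%), 48.1% in PIM (27.1%) and 36.2% in BMDM (19.8%). In muscle they were 9.22% in MB (12.8%), 15.9% in MT (19.9%) and 23.6% in GAS (23.8%). The nearest genes of the shared regions were lower than those of the muscle-restricted regions in each of the 4 non-muscle types, at 41.3%, 29.5%, 37.9% and 25.0%. Those of the regions called in MT and GAS but not MB were at 45.7%, 36.0%, 44.0% and 31.5%, which was nearer to the muscle-restricted regions, and no difference was tested.

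A total of 145 of the 841 regions (17.2%, 14.8 to 19.9%) lay within the stitching distance customary for super-enhancers (just under 13 kb) of another one, and the median gap to the nearest was 258498 bp. The share within that distance of a region of the same set was 26.8% for those called in MT and GAS but not MB, 21.8% for MT and MB but not GAS, 31.3% for MT alone and 25.3% for the shared regions, sets that hold more regions. Chaining regions within that distance gave 67 clusters, 9 of them with 3 or more regions. Counting any distal MT peak, 70.7% had one within that distance, against 59.9% of all distal MT peaks and 70.3% of the shared regions. Of the distal MT peaks of each chromosome, the members made up between 2.65% (chromosome 19) and 5.02% (chromosome 9).

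The largest cluster held 5 regions over 55330 bp of chromosome 13, in and past Zfp366, from 25190 to 74811 bp from its TSS. Their percentiles were 23.2, 74.2, 92.1, 14.2 and 92.9 in MT and 3.84, 19.6, 75.2, 18.4 and 31.4 in MB. In GAS 3 of them overlapped a single peak at the 99.4th percentile. H3K27ac in GAS covered 4 of the 5. The regions of this cluster are therefore not independent of each other. The Ddr2 cluster held 3 regions over 27143 bp of the gene, of which 1 carried H3K27ac in GAS. Of the 8 clusters with 3 regions each, the 4 with the highest summed MT signal are described. The Ddr2 cluster had the highest. The other 3 lay near 2310022B05Rik, upstream of Stim2 (a calcium sensor of the endoplasmic reticulum) and near Moxd1. H3K27ac in GAS covered all 3 near Stim2, 1 near 2310022B05Rik and 2 near Moxd1.

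**Figure D5:**
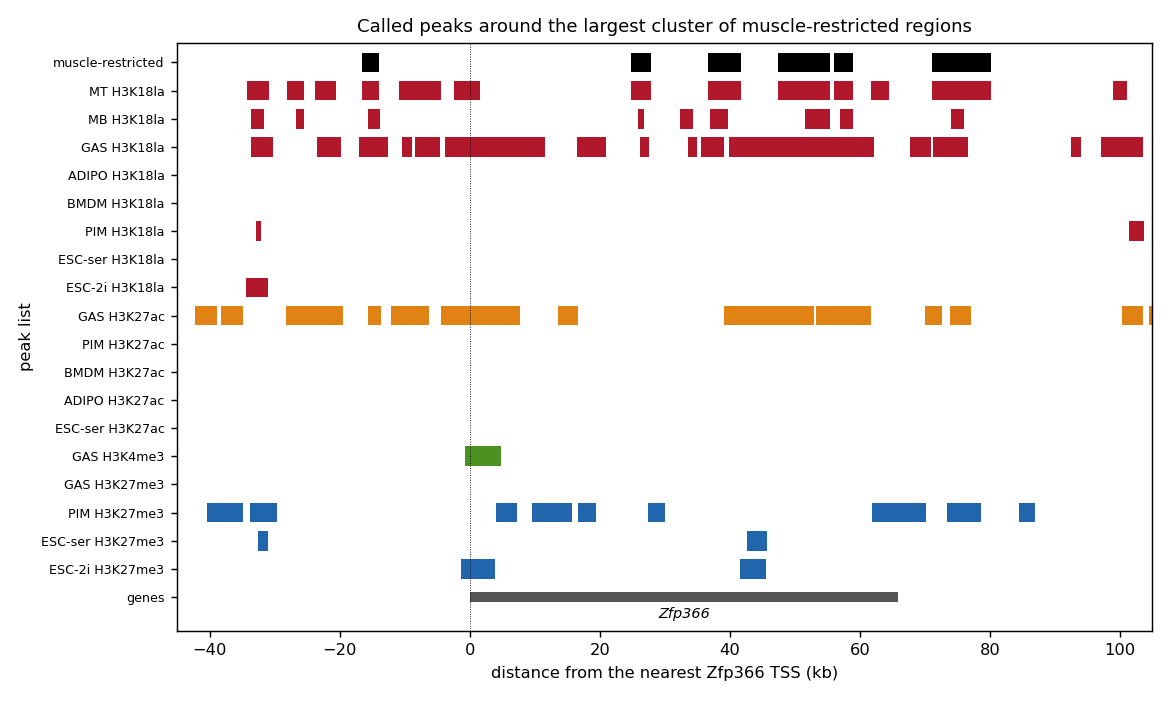
Called peaks around Zfp366, by distance from the nearest Zfp366 TSS (x axis, kb), with 1 lane per list (y axis) and the muscle-restricted regions in black. The black bars between 25 and 80 kb are the 5 regions of the largest cluster, and the H3K18la lanes of ADIPO, BMDM and ESC-ser and the 4 non-muscle H3K27ac lanes hold no peak in the window. Blue bars are H3K27me3, orange H3K27ac and green H3K4me3.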

How the data were processed

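Each of the 24 deposited lists holds 2 values per peak, a total signal (all fragment coverage under it added up) and a maximum signal. Per the labels and methods the authors trimmed the reads with Trim Galore 0.6.6, aligned them to mm10 with Bowtie2 2.4.4, combined the coverage of replicates and called peaks with SEACR 1.3 without a control. SEACR was run in stringent mode and only a fixed top share of peaks was kept. A region without a peak in a list was therefore below the cut of that list. The deposited signal was not scaled for depth, and the depth of each sample was not analysed here, so signal was ranked within a list. Peaks on chromosomes 1 to 19 fell inside the GRCm38 lengths.

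TSS and genes came from GENCODE M21 (134417 transcripts, 51229 genes), and a promoter was 2 kb to each side of a TSS. Overlaps, gaps and exact permutation tests over cell types were computed in Python 3.11.15 with numpy 2.4.6, pandas 2.3.3 and scipy 1.17.1, and checked on simulated intervals against bedtools 2.31.1. Figures used matplotlib 3.10.9. Promoter H3K18la outside muscle was counted by lineage, a grouping chosen after its values were seen. Motifs were counted on both strands in 300-bp windows. Nearest genes used TSS of protein-coding transcripts.

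The regions, the 13 gene lists and the tests were chosen with earlier results of these data known. Named regions were the 10 of highest mean percentile, the 5 clusters with the most regions (ties by summed MT signal), the 10 genes nearest to the most regions, up to 3 genes per muscle list, and the 5 highest-ranked with stem cell H3K27me3. Mybpc1 and the genes named from the other lists fall outside this rule and were named after their values were seen. Alternatives covered the promoter definition, overlap, base list and peak strength.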

Additional observations from a re-analysis of the deposited data

How the results depend on the processing

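The number of regions fell from 841 to 396 when at least 50% of the MT peak had to lie in MB and in GAS peaks, and to 229 with only the muscle peaks above their list's median total signal. The other 5 planned ways of choosing regions gave 793 to 1044. In alternatives chosen after seeing the data, 3529 regions were found when MB was not required and 2688 when MB had to be absent. The share with GAS H3K27ac was 49.3% in 300-bp windows, 53.1% with GAS peaks as the base list, 74.2% with the stronger peaks only, 64.4% when MB was not required and 66.3% when it had to be absent. The share within reach of another region was 10.8% at 5 kb, 22.6% at 25 kb, 21.3% with GAS as the base list, 11.1% with the 50% overlap, 6.11% with the stronger peaks only, 32.2% when MB was not required and 26.8% when it had to be absent. The share of sarcomere genes was 31.1% when MB was not required and 28.9% when it had to be absent. These larger sets reach more genes of any kind. With MB absent the regions were nearest to 7.85% of all genes, against 3.09% for the 841. The H3K27me3 difference kept its sign in every alternative run. With MB absent it was -1.25 and passed the threshold (exact permutation test, p = 0.0286). Leaving out each cell type in turn gave -1.75 (without ESC-ser) to -1.28 (without ESC-2i). The exact permutation p was 0.0667 to 0.1, where the smallest p possible is 0.05 or 0.0667. With nuclei only, which left out both stem cell lists, it was -1.64 (exact permutation test, p = 0.1, the smallest possible). The share in introns kept within its interval in every alternative run. No paired analysis was possible because replicates were pooled in the peak lists. The cause of these shifts was not tested beyond the construction of each alternative. A region counts as absent from a cell type where no peak was called, and the 1-sample MB and BMDM lists cannot be compared with a replicate.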
